A study of Mus musculus with 9 samples.

Results

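The genes described here are 10 components of the mTOR pathway: the kinase Mtor, its partners Rptor, Rictor and Deptor, the upstream regulators Tsc1, Tsc2 and Rheb, and the downstream substrates Rps6kb1, Eif4ebp1 and Eif4ebp2. They were chosen by gene symbol from a table of ribosome footprint counts that holds 55359 genes. All 10 were found and all 10 passed the filter on low counts, which left 14714 genes for testing. The rule that picks them uses names and no measured value, although the genes were proposed with earlier results of these data known.

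Footprints, the mRNA fragments that ribosomes shield from nuclease, were sequenced from mouse adipocyte precursors of inguinal white adipose tissue (subcutaneous fat) taken through beige adipocyte differentiation in culture. The 3 groups were cells that were not induced (day 0) and cells differentiated for 4 or 8 days, with 3 libraries each and 9 in all. Induction medium held dexamethasone at 2 µg/mL, 3-isobutyl-1-methylxanthine (IBMX) at 0.5 mmol/L, indomethacin at 125 µmol/L, insulin at 5 µg/mL, triiodothyronine at 1 µmol/L and rosiglitazone at 0.5 µmol/L. It was used for 2 days, after which the cells were kept in a medium that lacked IBMX, indomethacin and dexamethasone. Insulin, which acts upstream of mTOR, was therefore part of the treatment of both differentiated groups, and its effect cannot be told apart from that of the other agents or of differentiation.

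The kinase mTOR works in a pair of complexes. Complex 1, built around Raptor (Rptor), senses amino acids and insulin at the lysosome and promotes protein synthesis. It phosphorylates S6 kinase 1 (Rps6kb1) and the 4E-BPs (Eif4ebp1, Eif4ebp2), small proteins that sequester the cap-binding factor eIF4E until they are phosphorylated. Complex 2, built around Rictor, phosphorylates AKT and SGK kinases. In fat tissue the pathway is known for its part in adipogenesis, lipid synthesis and thermogenesis. Footprint counts measure how many ribosomes lay on an mRNA, not the phosphorylation through which most of these proteins act.

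Each library held 30823028 to 38994892 counts. The first principal component, which held 75.9% of the variance, separated day 0 from the differentiated libraries. Within the differentiated groups, day 4 replicate 2 and day 8 replicate 3 stood nearest to day 0 on that component. The summed level of adipocyte markers was 233 to 297 CPM (counts scaled to library size after TMM normalisation) at day 0, 29787 to 46105 CPM at day 4 and 46633 to 49889 CPM at day 8, with the lowest day 4 value in replicate 2. The summed level of beige markers was 3.06 to 3.69, 168 to 284 and 781 to 1350 CPM, with the lowest value of each differentiated group in the same pair of libraries. Fabp4 held most of the adipocyte sum, with 912998 to 1399352 counts per library at day 4 and 1502450 to 1620119 at day 8. Adipoq was lower at day 8 (69643 to 79977 counts) than at day 4 (99214 to 127650). Pparg, Cebpa and Plin1 counts overlapped between those days, and Lep had at most 8 counts per library. Precursor markers summed to 2398 to 2544, 801 to 1810 and 527 to 721 CPM, but did not all move together. Pdgfrb fell from 49844 to 59760 counts per library at day 0 to 8298 to 19809 at day 4. Cd34 (79 to 302, then 432 to 765 counts) and Dlk1 (157 to 345, then 388 to 629) were higher at day 4. Among other cell types, smooth muscle or pericyte markers summed to 2654 to 4138, 95.5 to 304 and 229 to 352 CPM, and endothelial markers to 18.6 to 27.0, 5.92 to 19.7 and 3.42 to 7.92 CPM. Acta2 held most of the smooth muscle or pericyte sum at day 0 (94664 to 134101 counts per library), and Acta2 and Myh11 fell. Cspg4 rose, with 476 to 629 counts at day 0 and 1387 to 2882 at day 8. Des also rose, with 117 to 249 and 434 to 783 counts, and Rgs5 had at most 16 counts per library. Macrophage markers summed to 48.1 to 93.1, 44.7 to 57.0 and 17.5 to 43.0 CPM. These lists did not move as a whole either. Tek fell from 385 to 730 counts at day 0 to 56 to 173 at day 8, as did Kdr and Cdh5. Pecam1 did not fall (31 to 54, then 53 to 58 counts). Lyz2 (772 to 2111, then 38 to 551 counts) and Csf1r (145 to 244, then 26 to 124) fell. Ptprc (493 to 634 and 434 to 555) and Cd68 (107 to 248 and 122 to 245) overlapped between days 0 and 8. In bulk samples, fewer cells of a type and less RNA per cell cannot be told apart, and the same holds here for a shift from precursors to fat cells and a change within either. The part of cell composition in the results below was not tested. Matched RNA was not analysed here, so a footprint level reflects both how abundant an mRNA was and how densely ribosomes covered it. Nothing in the labels says whether the 3 libraries of a group came from separate animals or cultures, so the p-values speak for the spread among these 9 libraries, which may be technical.

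The mRNAs of ribosomal proteins, whose translation is a classic target of mTOR complex 1, begin with a C followed by a run of pyrimidines, the terminal oligopyrimidine (TOP) motif. It was searched for as a C in the first transcribed position followed by at least 4 C or T, on the gene's own strand only, among the first 20 bases at RefSeq start positions (GRCm38.p6). The lines below, shown to set the motif beside the starts of pathway members, have that opening run in capitals where it is present.

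Rps6: CTCTTTTTCgtgacgcctcc
Rps21: CTCCTgcccaatagtgctgc
Rpl15: CTTCCTTTCCTCTggcggca
Fau: CTTCCTCTTTCTTgactcca
Mtor: tccctggcctagaagacagc
Eif4ebp2: cgaccgggcgagagcaggcg

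In that build these starts lie at chr4:86857348-86857367 on the minus strand for Rps6, the S6 kinase substrate, and at chr2:180257379-180257398 on the plus strand for Rps21. Another listed start of Rps21, at chr2:180257449-180257468, lacks the motif. The starts of Rpl15 and Fau lie at chr14:18270967-18270986 on the minus strand and chr19:6057947-6057966 on the plus strand. The starts of Mtor and Eif4ebp2 lie at chr4:148448582-148448601 on the plus strand and chr10:61452650-61452669 on the minus strand. The motif was at the start of 14 of 58 ribosomal protein genes with an entry (24.1%), of 813 of all 27025 genes in the table (3.01%) and of 0 of the 8 pathway members with an entry. A start that is off by a base hides the motif, so its absence says only that these letters are not at these positions.

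Comparing day 4 with day 0 asks what changed early in differentiation, and comparing day 8 with day 0 or with day 4 asks what was reached later. By the quasi-likelihood test of edgeR with Benjamini-Hochberg adjustment over all tested genes, 8 of the 10 members differed between day 4 and day 0, against a background of 58.2% of all tested genes. Mtor, Rptor, Deptor, Eif4ebp1 and Eif4ebp2 were higher (background 29.8%), and Rictor, Rps6kb1 and Tsc1 were lower (background 28.4%). Between day 8 and day 0, 5 of 10 differed, where 67.7% of all tested genes did. Mtor, Rptor, Deptor and Eif4ebp1 were higher (background 34.2%) and Rps6kb1 was lower (background 33.5%). Between day 8 and day 4, 3 of 10 differed against 31.8% of all tested genes, Deptor and Eif4ebp1 being higher (background 14.7%) and Eif4ebp2 lower (background 17.1%). The median log2 fold change of the members was 0.19, 0.25 and 0.07 in these comparisons, beside -0.02, -0.01 and -0.02 over all tested genes. The number of changed members was thus of the order of that among genes at large, and both comparisons with day 0 share the same 3 day 0 libraries.

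**Figure D1:**
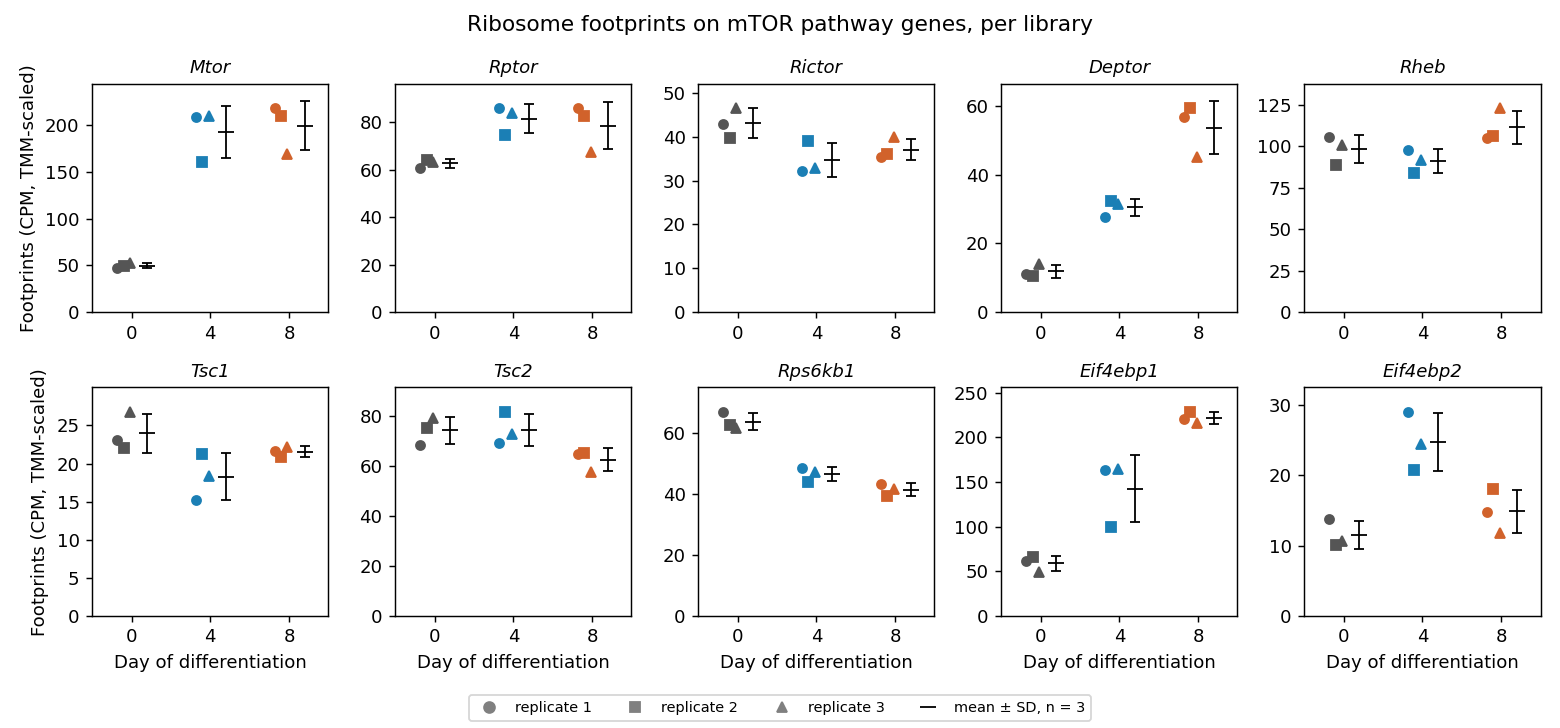
Footprint level (CPM) of the 10 members in every library at days 0, 4 and 8, one panel per gene, with points for libraries and a dash with bars for the mean ± SD (n = 3). Mtor rose from 49.6 to 192.6 CPM by day 4 and stayed near that level, Deptor rose at each step, and Eif4ebp2 was highest at day 4.

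Mtor, the kinase of both complexes, showed a large early rise. Its level was 47.2, 49.3 and 52.3 CPM in the day 0 libraries, 208, 160.2 and 209 CPM at day 4 and 218, 210.1 and 169 CPM at day 8. All 6 differentiated libraries lay above all day 0 libraries, and the lowest of each differentiated group were day 4 replicate 2 and day 8 replicate 3. The rise was 3.88-fold at day 4 (log2 fold change 1.96 ± 0.14 SE, edgeR adjusted p = 3.28e-06) and 4.01-fold at day 8 (2.01 ± 0.14, adjusted p = 2.48e-06). Day 8 and day 4 overlapped, with a log2 difference of 0.05 ± 0.14 (edgeR adjusted p = 0.816). The gene that encodes angiopoietin-like 7, Angptl7, lies within Mtor by RefSeq names and had 8 counts over all libraries together.

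Rptor, the scaffold that brings substrates to complex 1, rose far less than the kinase. It stood at 60.6, 64.1 and 63.2 CPM at day 0, at 86.0, 74.8 and 84.0 CPM at day 4 and at 85.8, 82.6 and 67.4 CPM at day 8. The groups did not overlap with day 0, and day 8 replicate 3 was the library nearest to it. The change was 1.30-fold at day 4 (log2 0.38 ± 0.11, edgeR adjusted p = 0.0141) and 1.26-fold at day 8 (0.33 ± 0.11, adjusted p = 0.0236). The day 4 call did not hold when library totals (log2 0.23, adjusted p = 0.0998) or the upper quartile (0.25, adjusted p = 0.0695) were used for scaling, with adjusted p from 0.000362 to 0.0998 over all alternatives. The day 8 call was lost without day 0 replicate 1 (log2 0.31, adjusted p = 0.0688), replicate 2 (0.34, 0.0509) or replicate 3 (0.33, 0.0562) and without day 8 replicate 1 (0.27, 0.0848) or replicate 2 (0.30, 0.0715). It was also lost with upper quartile scaling (0.22, 0.1002) and with no filter on low counts (0.34, 0.05004), over a range of 0.000403 to 0.1002.

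Rictor, the scaffold of complex 2, moved the other way. Its level was 42.9, 39.8 and 46.6 CPM at day 0, 32.3, 39.1 and 32.8 CPM at day 4 and 35.3, 36.1 and 39.9 CPM at day 8. The highest day 4 library, replicate 2, lay just under the lowest day 0 library, and day 8 replicate 3 overlapped with day 0. Rictor was 1.24-fold lower at day 4 (log2 -0.31 ± 0.11, edgeR adjusted p = 0.0329), while its day 8 difference of -0.22 ± 0.11 did not pass (adjusted p = 0.104). That day 8 difference passed with upper quartile scaling (log2 -0.32, adjusted p = 0.0228) and without day 4 replicate 2 and day 8 replicate 3 together (-0.27, 0.0257). The day 4 call was lost on leaving out any one of day 0 replicates 1 and 3, day 4 replicates 1 and 3, or day 8 replicates 1 and 2, with log2 values of -0.30 to -0.25 and adjusted p of 0.0552 to 0.121. It was also lost with no filter on low counts (-0.29, 0.105) and with the day 0 and day 4 libraries alone (-0.28, 0.0751). The whole range over the alternatives was 0.00314 to 0.121.

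Within each library, the ratio of Rptor to Rictor counts compares the scaffolds of both complexes. Coding lengths were not used here, so such ratios are read only as changes between days and not as relative amounts. The geometric mean ratio was 1.46 at day 0, 2.35 at day 4 and 2.11 at day 8. On the log2 scale this was 0.54 ± 0.13, 1.24 ± 0.26 and 1.08 ± 0.28 (SD, n = 3), a 1.62-fold difference at day 4 and a 1.45-fold difference at day 8 from day 0. The 3 groups differed by a one-sided exact permutation test on the sum of squares between groups (p = 0.0357, and 0.0357 after adjustment over the 4 ratios tested). The exact permutation call was lost on leaving out any one of 7 libraries: day 0 replicate 1, 2 or 3 (adjusted p = 0.0893, 0.0571 and 0.111), day 4 replicate 1 or 3 (0.0714 and 0.0679) and day 8 replicate 1 or 2 (0.05 and 0.0571).

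Deptor, an inhibitory subunit that binds mTOR in both complexes, was the member with the largest change at day 8. Its level was 11.0, 10.6 and 13.9 CPM at day 0, 27.6, 32.3 and 31.6 CPM at day 4 and 56.8, 59.4 and 45.0 CPM at day 8. The 3 groups did not overlap with each other, and each step was upward. The rise was 2.58-fold at day 4 (log2 1.37 ± 0.15, edgeR adjusted p = 3.75e-05) and 4.54-fold at day 8 (2.18 ± 0.15, adjusted p = 1.98e-06), with a further 1.76-fold between day 4 and day 8 (0.82 ± 0.14, adjusted p = 0.00304). These calls held under every alternative tried.

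**Figure D2:**
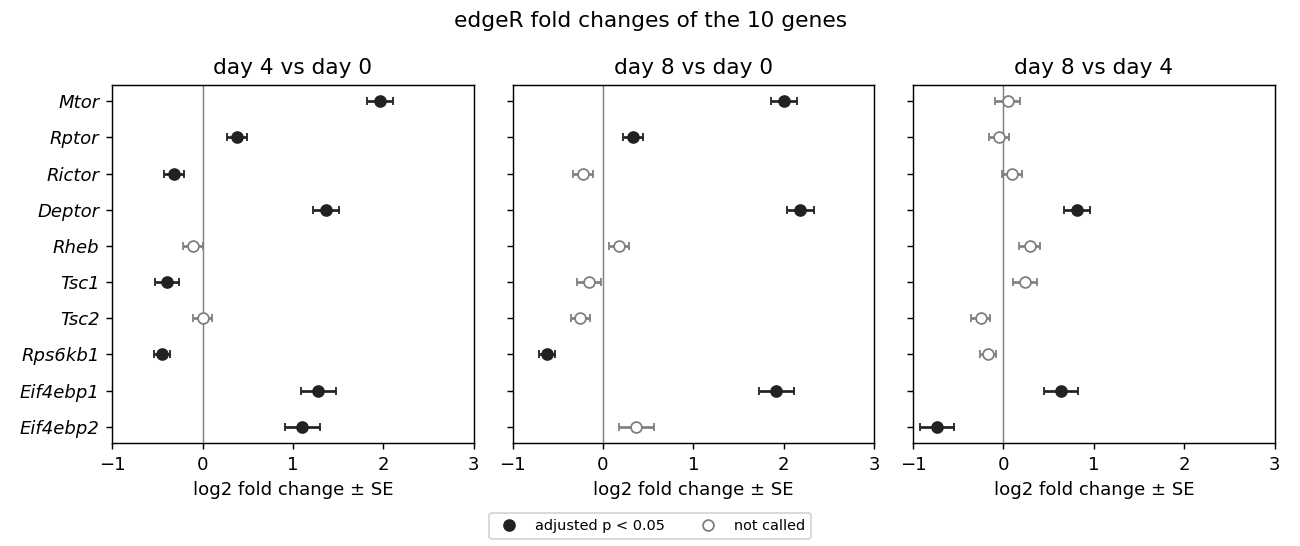
Fitted log2 fold change of each member with its standard error for day 4 over day 0, day 8 over day 0 and day 8 over day 4, with filled points for an adjusted p under 0.05 by edgeR. Mtor and Deptor had the largest rises from day 0 to day 8 (2.01 and 2.18), and Rps6kb1 had the largest fall (-0.62).

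Tsc1 and Tsc2 form the tuberous sclerosis complex, the main brake on the pathway, with Tsc2 as the part that inactivates Rheb and Tsc1 as its stabiliser. Tsc1 stood at 23.1, 22.0 and 26.8 CPM at day 0, at 15.1, 21.3 and 18.3 CPM at day 4 and at 21.6, 20.8 and 22.2 CPM at day 8. Day 4 replicate 2 was the highest of its group and lay just under the lowest day 0 library, and day 8 overlapped with day 0. Tsc1 was 1.31-fold lower at day 4 (log2 -0.39 ± 0.14, edgeR adjusted p = 0.0309) and differed by -0.15 ± 0.14 at day 8 (adjusted p = 0.338). The day 4 call was lost without day 0 replicate 1 or 3, day 4 replicate 1 or 3, or day 8 replicate 1 or 2, left out one at a time (log2 -0.40 to -0.27, adjusted p 0.0514 to 0.119). It was also lost with no filter on low counts (-0.37, 0.0594) and with those 2 groups alone (-0.36, 0.0774), over a range of 0.00353 to 0.119. Between day 8 and day 4 Tsc1 differed by 0.24 ± 0.14 (edgeR adjusted p = 0.205), which passed without day 4 replicate 2 (0.36, 0.0488).

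Tsc2 ran from 68.6 to 79.4 CPM at day 0, from 69.0 to 81.6 CPM at day 4 and from 57.4 to 65.4 CPM at day 8. Its day 8 libraries all lay below its day 0 and day 4 libraries, but neither difference passed the test (log2 -0.25 ± 0.10, adjusted p = 0.0575 against day 0, and -0.25 ± 0.10, adjusted p = 0.0937 against day 4, by edgeR). The day 8 difference from day 0 passed without day 4 replicate 2 (log2 -0.25, adjusted p = 0.0297), with upper quartile scaling (-0.36, adjusted p = 0.0119) and with the day 0 and day 8 libraries alone (-0.24, adjusted p = 0.0428). Pkd1, the polycystin 1 gene, overlaps Tsc2 by RefSeq names, and the strand setting of the counting is not given, so reads of the pair may not be fully separated. The within-library log2 ratio of Tsc1 to Tsc2 was -1.64 ± 0.11, -2.04 ± 0.13 and -1.54 ± 0.15 at days 0, 4 and 8 (SD, n = 3), lowest at day 4. The groups differed by the exact permutation test (p = 0.0214, adjusted 0.0286), but not without day 4 replicate 1, where the exact permutation test gave an adjusted p of 0.0714.

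Rheb, the small GTPase that activates mTOR at the lysosome and is held in check by the Tsc1-Tsc2 complex, passed no test. It ran from 88.6 to 105.5 CPM at day 0, from 83.8 to 97.8 CPM at day 4 and from 105.0 to 123 CPM at day 8, with overlap between day 0 and both other groups. The day 8 libraries all lay above the day 4 libraries, by 0.29 ± 0.11 on the log2 scale (edgeR adjusted p = 0.0723). That difference passed when library totals were used for scaling (log2 0.43, adjusted p = 0.0142) and by DESeq2 (0.29, adjusted p = 0.0467), over a range of 0.0142 to 0.264.

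Rps6kb1, the S6 kinase that phosphorylates ribosomal protein S6, was lower after induction. Its level was 66.9, 62.6 and 61.7 CPM at day 0, 48.6, 43.9 and 47.4 CPM at day 4 and 43.4, 39.3 and 41.7 CPM at day 8. All differentiated libraries lay below all day 0 libraries, and the day 8 libraries lay below the day 4 libraries. Rps6kb1 was 1.37-fold lower at day 4 (log2 -0.45 ± 0.09, edgeR adjusted p = 0.00155) and 1.54-fold lower at day 8 (-0.62 ± 0.09, adjusted p = 0.000160), and both calls held under every alternative. The later step of -0.17 ± 0.09 did not pass (adjusted p = 0.166). By RefSeq names Rps6kb1 overlaps Rnft1, which had 14339 counts over all libraries beside 15916 for Rps6kb1.

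The related kinase Rps6kb2 changed in the opposite direction at day 4, from a mean of 3.90 ± 0.262 to 8.73 ± 2.10 CPM (SD, n = 3), a 2.24-fold rise (log2 1.16 ± 0.19, edgeR adjusted p = 0.000604). Its mean was 6.05 ± 0.551 CPM at day 8.

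The 4E-BPs separated between day 4 and day 8. Eif4ebp1 stood at 60.9, 66.2 and 48.8 CPM at day 0, at 163, 99.2 and 165 CPM at day 4 and at 219.9, 228 and 215 CPM at day 8. The 3 groups did not overlap, and day 4 replicate 2 was the lowest of its group. Eif4ebp1 rose 2.43-fold by day 4 (log2 1.28 ± 0.19, edgeR adjusted p = 0.000327) and 3.77-fold by day 8 (1.92 ± 0.20, adjusted p = 2.13e-05), both under every alternative. The later step of 1.55-fold (0.64 ± 0.19, adjusted p = 0.0298) was lost without day 8 replicate 1 (log2 0.63, adjusted p = 0.0807), replicate 2 (0.61, 0.0885) or replicate 3 (0.65, 0.0525), over a range of 0.0113 to 0.0885.

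Eif4ebp2 rose and then came back. Its level was 13.8, 10.1 and 10.7 CPM at day 0, 29.0, 20.7 and 24.4 CPM at day 4 and 14.7, 18.0 and 11.8 CPM at day 8. All day 4 libraries lay above all libraries of the other groups, which overlapped with each other. The rise at day 4 was 2.15-fold (log2 1.10 ± 0.19, edgeR adjusted p = 0.000800) and held under every alternative. From day 4 to day 8 it fell 1.66-fold (-0.73 ± 0.19, adjusted p = 0.0170), a call lost only without day 8 replicate 1 among the alternatives (log2 -0.73, adjusted p = 0.0578, over a range of 0.00405 to 0.0578). Day 8 differed from day 0 by 0.37 ± 0.19 (adjusted p = 0.112), which passed without day 8 replicate 3 (log2 0.52, adjusted p = 0.0376), over a range of 0.0111 to 0.361. The paralog Eif4ebp3 had 0 to 2 counts per library and was not tested.

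The within-library ratio of Eif4ebp1 to Eif4ebp2 counts was 4.42, 6.56 and 4.57 at day 0, 5.62, 4.79 and 6.75 at day 4 and 14.9, 12.7 and 18.2 at day 8. Day 0 and day 4 overlapped, and all day 8 libraries lay above both. The log2 ratio was 2.35 ± 0.32, 2.50 ± 0.25 and 3.92 ± 0.26 (SD, n = 3), so day 8 was 2.96-fold above day 0 and 2.67-fold above day 4. The 3 groups differed by the exact permutation test (p = 0.0179, adjusted 0.0286), and the log2 difference of day 8 from day 0 stayed between 1.43 and 1.75 on leaving out any library.

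The cap-binding factor Eif4e, the target of the 4E-BPs, had few footprints and no passing change. Its level was 7.95, 8.08 and 7.26 CPM at day 0, 7.36, 8.86 and 9.16 CPM at day 4 and 6.20, 6.39 and 6.72 CPM at day 8. Day 8 lay below the other groups, by -0.39 ± 0.14 against day 4 (edgeR adjusted p = 0.0501) and -0.27 ± 0.14 against day 0 (adjusted p = 0.103). The day 4 comparison passed by DESeq2 (log2 -0.39, adjusted p = 0.0233) and without day 4 replicate 1 (-0.49, 0.0276), with adjusted p of up to 0.185 over the alternatives. That with day 0 passed under upper quartile scaling (-0.38, adjusted p = 0.0321), with adjusted p of up to 0.289.

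Summed counts of Eif4ebp1 and Eif4ebp2 over those of Eif4e gave a geometric mean ratio of 8.99 at day 0, 19.4 at day 4 and 36.7 at day 8. The log2 ratio was 3.17 ± 0.12, 4.28 ± 0.48 and 5.20 ± 0.10 (SD, n = 3), a 2.16-fold step to day 4 and a 1.89-fold step to day 8. The groups differed by the exact permutation test (p = 0.00357, the smallest that 3 groups of 3 can give, and 0.0143 after adjustment), and the call held on leaving out any library. This ratio had the largest change of the 4, 4.08-fold between day 0 and day 8. It follows footprints on the mRNAs, and neither protein levels nor the phosphorylated share of the 4E-BPs was measured.

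**Figure D3:**
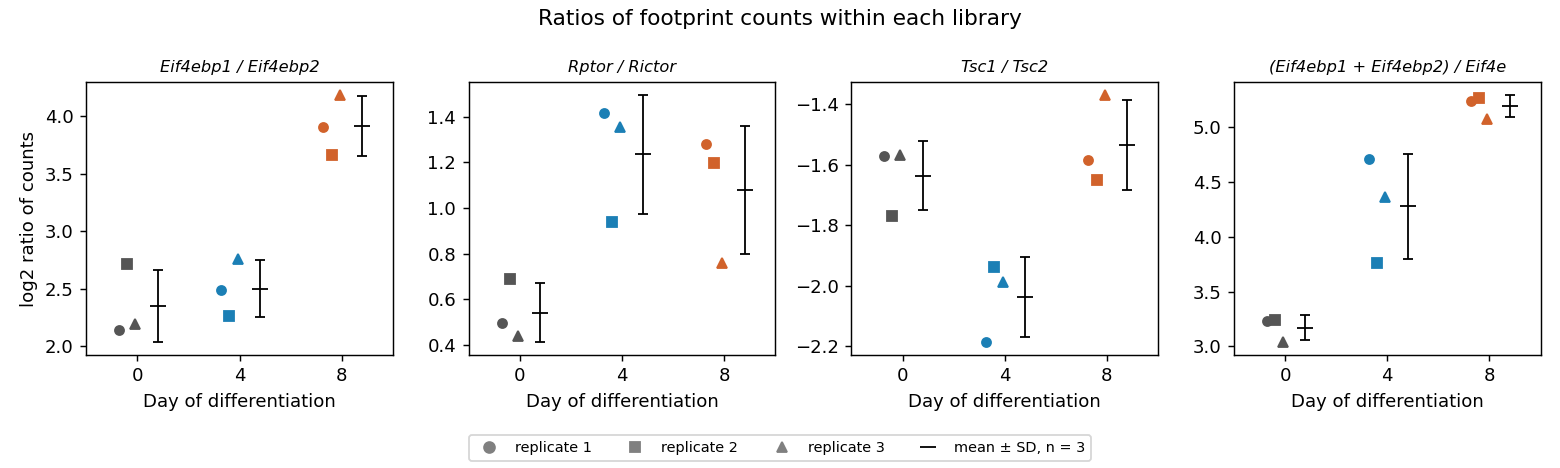
Within-library log2 ratios of footprint counts for Eif4ebp1 over Eif4ebp2, Rptor over Rictor, Tsc1 over Tsc2, and Eif4ebp1 plus Eif4ebp2 over Eif4e, with a point per library and a dash with bars for the mean ± SD (n = 3). The ratio over Eif4e rose from a mean of 3.17 through 4.28 to 5.20, while Eif4ebp1 over Eif4ebp2 rose only after day 4.

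The genes whose log2 CPM over the 9 libraries was most like each member were ranked among 10454 genes with at least 100 counts per library on average. The libraries fall into 3 groups, so a high Pearson r follows largely from the differences between days, and it is given as a description. Among the genes most like Mtor were Mlycd (r = 0.999), the malonyl-CoA decarboxylase, and Atp5a1 (0.998), a subunit of the ATP synthase. Eif4ebp1 was closest to Malsu1 (0.996), Smim26 (0.995) and Lactb2 (0.995). Deptor was closest to Acaa1b (0.993), a peroxisomal thiolase. Eif4ebp2, with its peak at day 4, was closest to Purb (0.957), Klf15 (0.956), a glucocorticoid-induced transcription factor, and Them6 (0.955). Among the members that fell, Rictor was closest to Cdk20 (0.994), Rps6kb1 to Dbnl (0.993) and Tsc1 to Rev1 (0.969).

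Other genes of the pathway were counted in 7 lists, chosen by role. Akt1s1 is counted both with the complex subunits and with the substrates, and Rps6 both with the substrates and with the ribosomal proteins. The list counts stand beside a background, over all tested genes, of 29.8% higher and 28.4% lower at day 4 and of 34.2% higher and 33.5% lower at day 8, both against day 0. Of the 8 other subunits and assembly factors of the mTOR complexes, 3 were higher and 1 lower at day 4, and 4 were higher and 2 lower at day 8, both against day 0, with medians of 0.22 and 0.16 on the log2 scale. Prr5 and Prr5l, subunits of complex 2, were among those that rose. Prr5 went from 4.79 ± 1.10 to 14.3 ± 4.60 and 9.65 ± 0.684 CPM (SD, n = 3), with log2 changes of 1.58 ± 0.26 and 1.01 ± 0.26. Prr5l went from 1.40 ± 0.0616 to 3.22 ± 0.169 and 4.54 ± 0.785 CPM, with log2 changes of 1.20 ± 0.19 and 1.70 ± 0.19. Mlst8, the subunit shared by both complexes, was 1.57-fold higher at day 4 (0.65 ± 0.12), and Akt1s1, the complex 1 inhibitor PRAS40, was 1.39-fold lower at day 8 (-0.48 ± 0.09). The lower call at day 4 was lost on leaving out any library except day 0 replicate 2. It was also lost with no filter on low counts, with a block for replicate number and with those 2 groups alone. At day 4, 3 were lower with library totals and 2 with the upper quartile. The day 8 count of higher genes was 2 with the upper quartile, without day 0 replicate 1 or without day 8 replicate 1. That of lower genes was 1 without day 0 replicate 1 or 3 or day 8 replicate 1 or 3, and with no filter on low counts.

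Of 21 genes listed as other brakes and amino acid sensors, 7 were higher and 6 lower at day 4 and 9 higher and 6 lower at day 8 against day 0 (medians 0.21 and 0.07). The list also holds Mios, Wdr24, Wdr59, Seh1l and Sec13, which belong to an activating complex, so its counts are not of brakes alone. The day 4 counts were near the background of 29.8% and 28.4%. Nprl2, a subunit of the GATOR1 complex that turns off the Rag GTPases, rose at each step, from 16.6 ± 0.887 through 30.3 ± 2.15 to 49.4 ± 5.05 CPM. Its log2 change was 0.87 ± 0.11 at day 4, 1.57 ± 0.11 at day 8 and 0.70 ± 0.11 between them. Sesn3, a sestrin that restrains complex 1, fell from 69.5 ± 15.6 to 19.0 ± 5.51 and 15.9 ± 4.44 CPM (log2 -1.87 ± 0.26 and -2.13 ± 0.26). Castor1, an arginine sensor, was 2.34-fold lower at day 4 (-1.22 ± 0.17), and its relative Castor2 was 2.44-fold lower at day 8 (-1.29 ± 0.14). Without day 0 replicate 3, day 4 replicate 1 or day 4 replicate 3, or with library totals, 4 of these genes were higher at day 4.

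Lysosomal docking genes encode the Rag GTPases, the Ragulator complex and folliculin with its partners. Of 13 tested, 6 were higher and 1 lower at day 4 and 8 were higher and 2 lower at day 8 against day 0 (medians 0.24 and 0.38). With library totals or the upper quartile, 3 were higher and 3 lower at day 4. Lamtor2, a Ragulator subunit, went from 61.3 ± 6.07 through 78.7 ± 13.0 to 125 ± 4.76 CPM and was 2.04-fold higher at day 8 (log2 1.03 ± 0.13). Slc38a9, a lysosomal arginine sensor, rose by 0.56 ± 0.11 and 0.82 ± 0.11 on the log2 scale, and Lamtor3 by 0.78 ± 0.14 at day 8. Fnip2, a folliculin partner, was 1.75-fold lower at day 4 (-0.81 ± 0.21). The day 4 count of higher genes was 3 without day 0 replicate 2 or 3 or day 4 replicate 1 or 3, and the day 8 count of lower genes was 1 without day 0 replicate 1 or 3 or day 8 replicate 2 or 3.

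Growth factor and energy inputs had the highest list median at both times. Of 18 genes, 11 were higher and 3 lower at day 4 and 10 were higher and 3 lower at day 8 against day 0 (medians 0.83 and 0.61). Irs2, an adaptor of the insulin receptor, went from 16.3 ± 3.47 to 85.4 ± 2.87 and 59.0 ± 9.89 CPM (log2 2.38 ± 0.17 and 1.85 ± 0.17). Prkaa2, a catalytic subunit of the energy sensor AMPK, went from 0.821 ± 0.0672 through 9.73 ± 4.55 to 35.8 ± 2.66 CPM (3.56 ± 0.37 and 5.44 ± 0.39). Prkag2, a regulatory AMPK subunit, was 2.93-fold higher at day 4 (1.55 ± 0.10). Pik3r2, a regulatory subunit of PI3-kinase, was 2.40-fold lower at day 8 (-1.26 ± 0.10).

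Of 18 tested substrates and effectors other than the members, 7 were higher and 3 lower at day 4 and 8 were higher and 7 lower at day 8 against day 0 (medians 0.17 and 0.31). The background was 29.8% higher and 28.4% lower at day 4 and 34.2% and 33.5% at day 8. With library totals or the upper quartile, 5 were lower at day 4. Lpin1, a phosphatidate phosphatase of triglyceride synthesis, had the largest rise, from 43.3 ± 5.59 to 864 ± 323 and 993 ± 136 CPM (log2 4.32 ± 0.30 and 4.52 ± 0.30). Pdcd4, an inhibitor of the helicase eIF4A, rose from 55.1 ± 3.49 to 104 ± 6.61 and 128 ± 10.3 CPM (0.92 ± 0.10 and 1.22 ± 0.10). Ulk1, a kinase that starts autophagy, was 2.98-fold higher at day 8 (1.57 ± 0.20). Sgk1, a complex 2 substrate, was 7.68-fold lower at day 8 than at day 4 (-2.94 ± 0.39), a log2 change that was -2.30 without day 4 replicate 2. In the same comparison Ndrg1 was 4.55-fold higher (2.19 ± 0.29) and Larp1 was 1.54-fold lower (-0.62 ± 0.09). The day 4 count of lower genes was 1 without day 0 replicate 2 or 3 or day 4 replicate 3 or with those 2 groups alone, and 5 without day 4 replicate 2.

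The cap-binding complex eIF4F, which recruits ribosomes to mRNA caps, was counted with its partners. Of 10 genes, 4 were higher at day 4, and 3 were higher and 3 lower at day 8 against day 0. Between day 8 and day 4, 1 was higher and 4 were lower (median -0.39), where 14.7% of all tested genes were higher and 17.1% lower. The number higher in that comparison was 3 with library totals or by DESeq2 and 2 by limma-voom. It was also 2 without day 4 replicate 2 and day 8 replicate 3 together. At day 8 against day 0, 5 were lower with the upper quartile. With library totals or the upper quartile, 1 was higher and 1 lower at day 4. Eif4g1, the main scaffold, went from 451 ± 30.4 to 738 ± 13.9 and 395 ± 9.41 CPM, a rise of 0.71 ± 0.10 on the log2 scale at day 4 and a fall by 0.90 ± 0.10 after it. Eif4a2, a helicase, was 1.92-fold higher at day 8 than at day 4 (0.94 ± 0.12), and Pabpc1, the poly(A)-binding protein, was 2.19-fold lower at day 8 than at day 0 (-1.13 ± 0.20). The day 4 count of higher genes was 1 without day 0 replicate 1 or without day 4 replicate 3.

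Cytosolic ribosomal protein genes encode the classic TOP mRNAs. Of 79 genes, 16 were higher and 3 lower at day 4 (median 0.07), and 4 were higher and 41 lower at day 8 against day 0 (median -0.52), beside a background of 33.5% lower, with 34 not called. Between day 8 and day 4, 47 were lower by edgeR (median -0.64, background 17.1%), with 30 lower with library totals, 29 with those 2 groups alone, 27 lower without day 4 replicate 3, 25 without day 8 replicate 1 and 26 without day 8 replicate 2. Without day 0 replicate 3 or day 4 replicate 3, 9 were higher at day 4. The number lower at day 4 was at most 1 without day 0 replicate 2 or 3 or day 4 replicate 1 or 3. It was 9 without day 4 replicate 2, 12 without that library and day 8 replicate 3 together, and 7 with library totals or the upper quartile. Rps21 went from 67.7 ± 3.99 through 81.5 ± 11.0 to 43.2 ± 6.58 CPM and was 1.89-fold lower at day 8 than at day 4 (log2 -0.92 ± 0.14). Rpl6 went from 12.0 ± 0.700 and 11.2 ± 1.19 to 4.64 ± 0.695 CPM, 2.58-fold lower at day 8 than at day 0 (-1.37 ± 0.15). Rpl9 rose, by 1.92 ± 0.28 and 2.23 ± 0.28, from 0.489 ± 0.159 CPM at day 0.

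Among the ribosomal protein genes whose starts are printed above, Rps21 was lower at day 8 than at day 0 (log2 -0.65 ± 0.14, edgeR adjusted p = 0.00192). Rps6 (-0.10 ± 0.25, adjusted p = 0.727), Rpl15 (-0.07 ± 0.22, 0.797) and Fau (0.30 ± 0.19, 0.179) did not pass. Of the 14 ribosomal protein genes with the motif at the listed start, 3 were lower at day 8, as were 28 of 44 with another start and 10 of 21 without an entry. A start listed off by a base hides the motif, so the 44 may include genes that carry it. Rpl27a, for one, is listed with a T before a run of C and T. This split therefore does not separate genes with the motif from genes without it. The ribosomal protein genes had few footprints, with a day 0 mean level of 0.186 to 415 CPM, a median of 7.70 CPM, and 44 of 79 below 10 CPM. For 64 of them the gene symbols of the data include a pseudogene named after the gene. How reads that map to several places were counted is not given, so their values are uncertain. Lower genes were 12 of 15 without and 29 of 64 with a named pseudogene, and pseudogenes under other names were not counted.

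**Figure D4:**
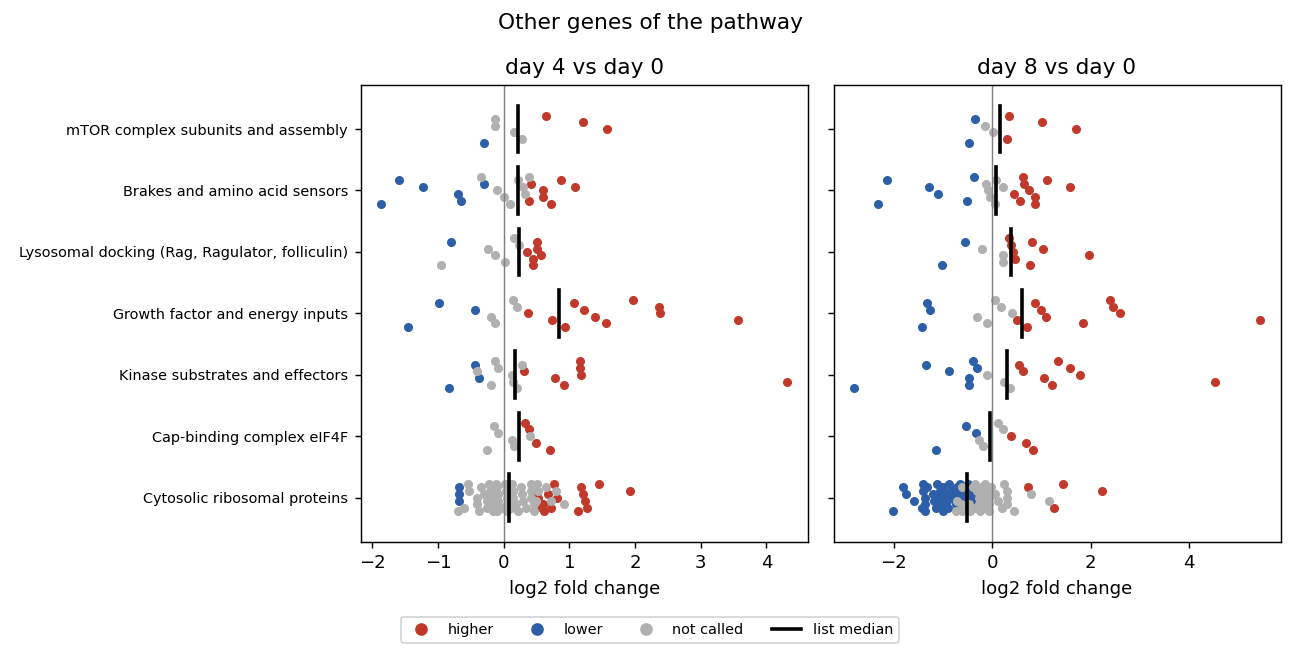
Log2 fold change of each tested gene of the 7 pathway lists for day 4 over day 0 and day 8 over day 0, with a point per gene coloured by its edgeR call and a line at each list median. Growth factor and energy inputs have the highest medians against day 0 (0.83 and 0.61), and ribosomal protein genes lie mostly below 0 at day 8 (median -0.52).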

How the data were processed

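Raw counts per gene were deposited by the authors, with 1 column per library and no normalisation. Per the submitters' processing notes, the tools were cutadapt, HISAT2 and featureCounts and the build was GRCm39. Versions, the strand setting and the treatment of multi-mapping reads: not given in the sources used here. filterByExpr (minimum count 10) kept 14714 genes, which held at least 99.95% of each library's counts. Counts were scaled by TMM and tested with the edgeR 4.0.16 quasi-likelihood test in R 4.3.3. Group was the only term, all 9 libraries were in the fit, and calls were made at a Benjamini-Hochberg adjusted p of 0.05 over all tested genes. SE values derive from the F statistic. Fold changes are fitted values, and CPM use TMM-scaled totals. Named genes are all members, Eif4e, and from each list up to 3 called genes with the smallest adjusted p per comparison, of which not all are printed. Rps6, Rpl15, Fau and Rps21 are also named for their start sequences. Likeness is Pearson r of log2 CPM (prior count 2). Ratios of counts within libraries were tested by exact permutation over 1680 arrangements, one-sided for large differences. Alternatives changed scaling, filter, tool (DESeq2 1.42.0, limma-voom with limma 3.58.1), libraries and a block for replicate number. A fit that left out both day 4 replicate 2 and day 8 replicate 3 was chosen after seeing the data. The procedure was tested on simulated data in which a small share of genes was changed. In these data 58.2% and 67.7% of tested genes were called against day 0, a setting the simulation did not cover. Members and lists were chosen with earlier results of these data known. Symbols were matched to RefSeq tables of GRCm38.p6 for names and start sequences only.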

Additional observations from a re-analysis of the deposited data

How the results depend on the processing

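Over 18 alternatives for each of the 30 member results (540 values), 489 kept direction and side of the threshold, 31 lost the call, 10 gained it and 10 changed sign. The sign changes were in differences that passed no test. The log2 difference of Tsc2 between day 4 and day 0 was -0.15 with library totals, -0.12 with the upper quartile, -0.0002 with the replicate block and -0.064 without day 4 replicate 2 and day 8 replicate 3 together, and it ran from -0.065 (without day 4 replicate 2) to 0.057 on leaving out single libraries, being negative also without day 0 replicate 1. For day 8 against day 4, Mtor ran from -0.070 (without day 4 replicate 2) to 0.15 and was also negative (-0.03) without day 8 replicate 1. Rptor was 0.091 with library totals and ran from -0.13 to 0.043 (without day 8 replicate 3). Eif4e at day 4 was -0.031 with library totals and -0.0024 with the upper quartile. Without day 8 replicate 1, 1 member was called between day 8 and day 4, and leaving out single libraries gave 1 to 4. The log2 difference of Rptor over Rictor between day 8 and day 0 was 0.43 to 0.70 on leaving out single libraries. For Tsc1 over Tsc2 it was 0.018 without both doubted libraries, where the exact permutation test gave an adjusted p of 0.0952, and 0.018 to 0.16 on leaving out single libraries.

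The labels state no pairing by replicate number, and pairing was not settled here. Deviations from group means correlated at -0.20 to 0.19 between same-numbered libraries. Differently numbered libraries of different groups gave -0.30 to 0.31. Between day 0 and day 8 the correlations were 0.07 to 0.12 for the same number and negative for the other pairs. With the replicate block, 7, 5 and 2 members were called in the 3 comparisons, without Rictor at day 4 and Eif4ebp1 between day 8 and day 4. Over all genes, 4676 were called between day 8 and day 4, against 2706 without day 8 replicate 1 and 2760 without replicate 2. With library totals the median log2 change of all genes was -0.17 in place of -0.02 at day 4 against day 0, where 41.9% of calls were higher in place of 51.2%. At day 8 against day 4 it was 0.12 in place of -0.02 (65.9% in place of 46.2%). With the upper quartile it was -0.14 at day 4 and -0.11 at day 8 against day 0, in place of -0.02 and -0.01. Eif4e had 222 to 325 counts per library, the level behind its values.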

Other observations

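Some genes of the lists were singled out after their values were seen. The AKT kinases, which carry the insulin signal to mTOR, moved in opposite directions. Akt2, the main isoform of insulin-responsive fat, had means of 21.8, 85.1 and 132.7 CPM at days 0, 4 and 8 and rose by 1.96 ± 0.23 and 2.60 ± 0.24 on the log2 scale against day 0. Akt1 fell by 0.98 ± 0.16 and 1.31 ± 0.16. Eef2k, the kinase that slows elongation and is inhibited by S6 kinase, had means of 58.0, 32.4 and 23.0 CPM and fell by 0.84 ± 0.17 and 1.33 ± 0.17. Ddit4, the stress-induced inhibitor REDD1, rose by 1.09 ± 0.26 at day 4, with 217 CPM in replicate 2 beside 457 and 461 CPM in the others. Rps6, the S6 kinase substrate, had means of 1.35, 3.06 and 1.26 CPM, a rise of 1.18 ± 0.24 at day 4 and a fall by 1.28 ± 0.24 from day 4 to day 8. How reads that map to several places were counted is not given, so the counts of Rps6 are uncertain.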
